A study of Mus musculus with 12 samples.

Results

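The genes described here encode the G-protein-coupled serotonin receptors of the mouse brain. They were taken as the rows of the raw count table whose Ensembl identifier carries the symbol Htr1a, Htr1b, Htr1d, Htr1f, Htr2a, Htr2c, Htr4, Htr5a, Htr6 or Htr7. All 10 were found among 56748 genes, and all 10 were counted often enough to enter the test of 17995 genes. RNA sequencing had been done on 12 mouse brain libraries, described by the series as adult forebrain, in 4 groups of 3. The groups were wildtype (WT), the knockout (htr3a Notch KO, a Notch conditional knockout), WT exposed before birth to valproic acid, and the knockout exposed before birth to valproic acid. Neither the labels nor the series text names the Notch gene, the Cre driver, the strain, the age in days, or when and how much drug was given. Valproic acid is an antiepileptic drug that inhibits histone deacetylases, and prenatal exposure to it is used in rodents to model autism. No label says that the libraries came from separate animals, so p-values measure only the spread between libraries, which may be technical.

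Serotonin acts in the forebrain through fibres that arise in the raphe nuclei of the brainstem, and the receptor on the receiving cell sets the response. Htr1a, Htr1b, Htr1d, Htr1f and Htr5a couple to Gi/o proteins, which lower cyclic AMP. Htr2a and Htr2c couple to Gq, which activates phospholipase C, and Htr4, Htr6 and Htr7 couple to Gs, which raises cyclic AMP. Htr1a and Htr1b also serve as autoreceptors of serotonin neurons, on the cell body and on axon terminals. The serotonin receptor built from Htr3a and Htr3b is instead an ion channel. Because the tissue was sequenced in bulk, fewer cells of a type and less RNA per cell cannot be told apart.

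Total counts per library were 16887885 to 24944681. Xist, the RNA of the inactive X chromosome, had 12 counts in exposed WT replicate 3 and 6 in exposed knockout replicate 3, against 5919 to 10767 elsewhere, so 2 libraries lacked it and both were exposed. In the knockout check, log2 fold changes of Notch1, Notch2, Notch3 and Notch4 were -0.06, -0.11, 0.17 and -0.29 without valproic acid (edgeR adjusted p = 0.9996 for each). A count over a whole gene cannot show that 1 exon is lost. Of the forebrain neuron markers listed, 20 of 20 striatal, 13 of 14 deep-layer cortical, 12 of 12 upper-layer cortical and 14 of 15 hippocampal ones matched a row of the table, and none of those matched was at 0 throughout. The 8 listed markers of serotonin neurons summed to 7.21 to 11.6 CPM per library, and 4 of the 8 had enough counts to be tested. Among the defining ones, the transporter gene Slc6a4 had 0 to 2 counts per library, the transcription factor gene Fev 0 to 3, and Tph2, which encodes the serotonin-synthesising enzyme of neurons, 13 to 46.

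The promoters of the 3 receptor genes with the smallest p-values for valproic acid are shown because Htr1d was the only receptor gene to pass that test and Htr1b and Htr2a came next. RefSeq gave 11 promoter windows for 9 of the 10 genes on build GRCm38.p6, each holding 250 bases before a transcription start and 50 after. Htr1d has 2 annotated starts, on the plus strand of chromosome 4, in the windows chr4:136423274-136423573 and chr4:136424362-136424661. Htr1b lies on the minus strand (chr9:81633783-81634082) and Htr2a on the plus strand (chr14:74640624-74640923). Capitals mark the GC box (GGGCGG) and the CCAAT box (CCAAT) on either strand, and all windows read 5′ to 3′ along the gene.
Htr1d, first start: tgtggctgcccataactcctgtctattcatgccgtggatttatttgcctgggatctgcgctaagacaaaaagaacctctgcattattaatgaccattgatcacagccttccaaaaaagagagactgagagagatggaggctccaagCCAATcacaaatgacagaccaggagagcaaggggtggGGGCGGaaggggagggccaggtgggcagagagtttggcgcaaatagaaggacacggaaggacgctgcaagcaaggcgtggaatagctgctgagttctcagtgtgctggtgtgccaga
Htr1d, second start: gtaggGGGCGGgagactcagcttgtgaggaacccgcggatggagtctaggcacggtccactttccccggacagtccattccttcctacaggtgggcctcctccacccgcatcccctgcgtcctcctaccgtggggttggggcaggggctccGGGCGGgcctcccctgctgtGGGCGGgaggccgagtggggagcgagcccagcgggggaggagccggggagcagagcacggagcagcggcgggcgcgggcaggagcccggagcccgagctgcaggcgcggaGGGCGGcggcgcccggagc
Htr1b: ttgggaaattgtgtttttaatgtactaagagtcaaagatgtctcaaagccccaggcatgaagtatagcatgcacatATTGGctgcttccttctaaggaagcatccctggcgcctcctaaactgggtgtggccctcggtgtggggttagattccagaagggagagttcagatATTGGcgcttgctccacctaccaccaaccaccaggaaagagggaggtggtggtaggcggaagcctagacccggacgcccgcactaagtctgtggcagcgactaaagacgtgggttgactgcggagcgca
Htr2a: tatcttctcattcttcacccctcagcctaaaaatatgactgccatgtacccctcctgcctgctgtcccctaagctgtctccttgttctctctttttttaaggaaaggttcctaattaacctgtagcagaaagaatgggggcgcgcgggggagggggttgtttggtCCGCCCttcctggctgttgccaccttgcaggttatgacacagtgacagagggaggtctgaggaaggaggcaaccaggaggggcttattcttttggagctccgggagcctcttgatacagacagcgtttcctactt
The second Htr1d window held 28 CpG dinucleotides and was 74.3% G and C, whereas the first held 7 and was 52%. Over all RefSeq mouse promoter windows of this length the medians were 7 and 52.7%. The GC box occurred 4 times in the second Htr1d window, 1 time in the first and 1 time in Htr2a. Htr1b had 2 CCAAT boxes and no GC box. Of all 32851 windows, 35.7% held a GC box and 37.4% a CCAAT box, against 6 and 3 of the 11 receptor windows. In the windows printed here no GC box or CCAAT box overlapped another. The TATA box (TATAAA), found in 13.6% of windows, and the cyclic AMP response element (TGACGTCA), found in 1.79%, were in none of the 11. A match of letters describes the sequence and does not show a bound site.

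Levels were compared between genes as CPM (counts scaled to library size with TMM factors) per kilobase of annotated exon. Exon length took in every base annotated as exon in any transcript of the gene. The order here and the shares below depend on that choice, and on the Htr1b count, whose uncertainty is given below. On this scale Htr2c, whose product is found in choroid plexus epithelium as well as in neurons, had the highest mean (4.09 ± 0.392, mean ± SD over 12 libraries). Htr2a, the cortical receptor at which classical hallucinogens act, followed with 3.36 ± 0.476 CPM per kilobase. Htr7 (2.65 ± 0.254), Htr1a (2.56 ± 0.278), Htr1b (2.24 ± 0.28), Htr6 (1.99 ± 0.338) and Htr5a (1.71 ± 0.164) formed a middle set. Htr1d (0.703 ± 0.265), Htr1f (0.49 ± 0.131) and Htr4 (0.488 ± 0.11) were lowest. The only neighbours in this order whose ranges did not overlap were Htr5a and Htr1d, with Htr5a higher in 12 of 12 libraries. Htr2c exceeded Htr2a in 10 of 12 libraries and Htr2a exceeded Htr7 in 11, but their ranges overlapped. Htr7 exceeded Htr1a in 7 of 12 and Htr1f exceeded Htr4 in 5 of 12, so neither pair had a settled order.

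**Figure D1:**
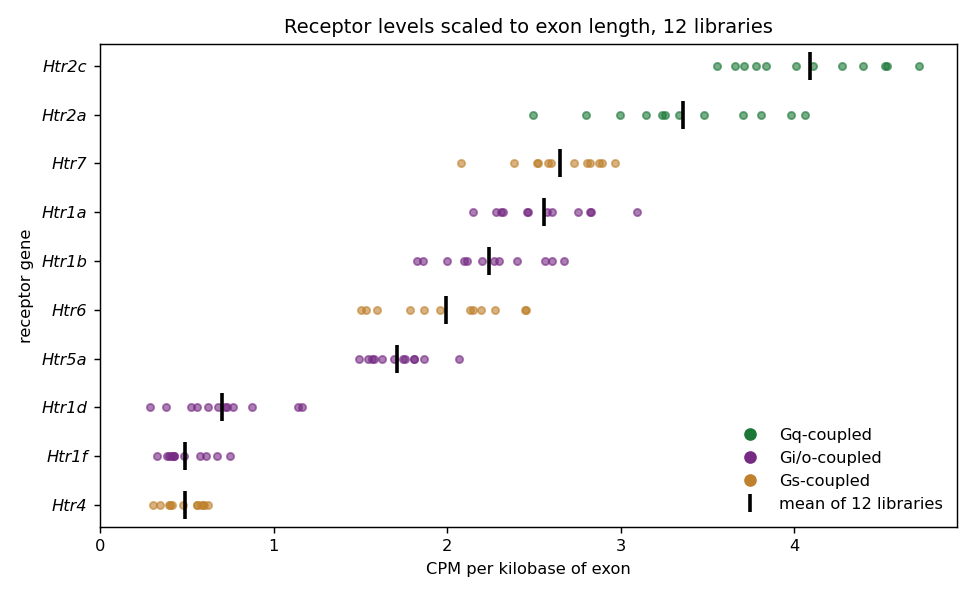
Length-scaled level (CPM per kilobase of exon, horizontal axis) of each receptor gene, with a point per library coloured by G-protein coupling and a bar at the mean of 12 libraries. Htr2c and Htr2a lie highest, and a gap separates Htr5a from Htr1d, Htr1f and Htr4.

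The Gq-coupled pair made up 33.7% to 38.8% of the summed length-scaled level of the 10 genes over the 12 libraries, and Htr2c alone 17.2% to 23.7%. The Gi/o-coupled genes held 39% to 39.5% in WT, 37% to 41.1% in knockout, 36.4% to 40.5% in exposed WT and 34.8% to 35.1% in exposed knockout. The Gs-coupled genes held 23.3% to 25% in WT, 20.1% to 25.2% in knockout, 25.1% to 25.9% in exposed WT and 26.3% to 29.8% in exposed knockout. Exposed knockout thus had the lowest Gi/o shares and the highest Gs shares, which is a description with no test.

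Receptor genes with few counts varied most between libraries of a group. Htr1d had a mean of 47.5 counts and a within-group coefficient of variation of 30.8%, against 14.5% from counting alone. Htr2c, with 811.8 counts, varied by 7.8% against 3.51% from counting. Htr1f, with 26.8 counts, varied by 19.9%, close to its counting error of 19.3%.

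The first comparison, knockout against wildtype in mice not exposed to the drug, asks whether the receptors differed between the genotypes. The Cre driver is not named, so the deletion and any driver allele carried by the line cannot be told apart. None of the 10 genes passed edgeR's quasi-likelihood test, where 0.0389% of all tested genes passed. At an unadjusted p under 0.05 there were 0 of 10 (3.13% of all genes), and DESeq2 and limma-voom also called 0. The groups overlapped for all 10 genes (7.39% of all genes had groups that did not overlap). The median log2 fold change of the 10 was -0.06, against 0.00 over all tested genes (-9e-04). The highest and lowest values were 0.19 for Htr1d (95% interval -0.39 to 0.78) and -0.37 for Htr1f (-0.98 to 0.24). For Htr2c, the most precisely measured, the interval was -0.12 to 0.23. The ion-channel receptor genes differed: Htr3a was at 10.1 ± 0.616 CPM in knockout and 4.28 ± 0.773 CPM in WT (mean ± SD, n = 3, edgeR adjusted p = 5.34e-05). For Htr3b the knockout libraries summed to 250 counts and the WT libraries to 0. The source of the Htr3a and Htr3b differences was not tested.

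**Figure D2:**
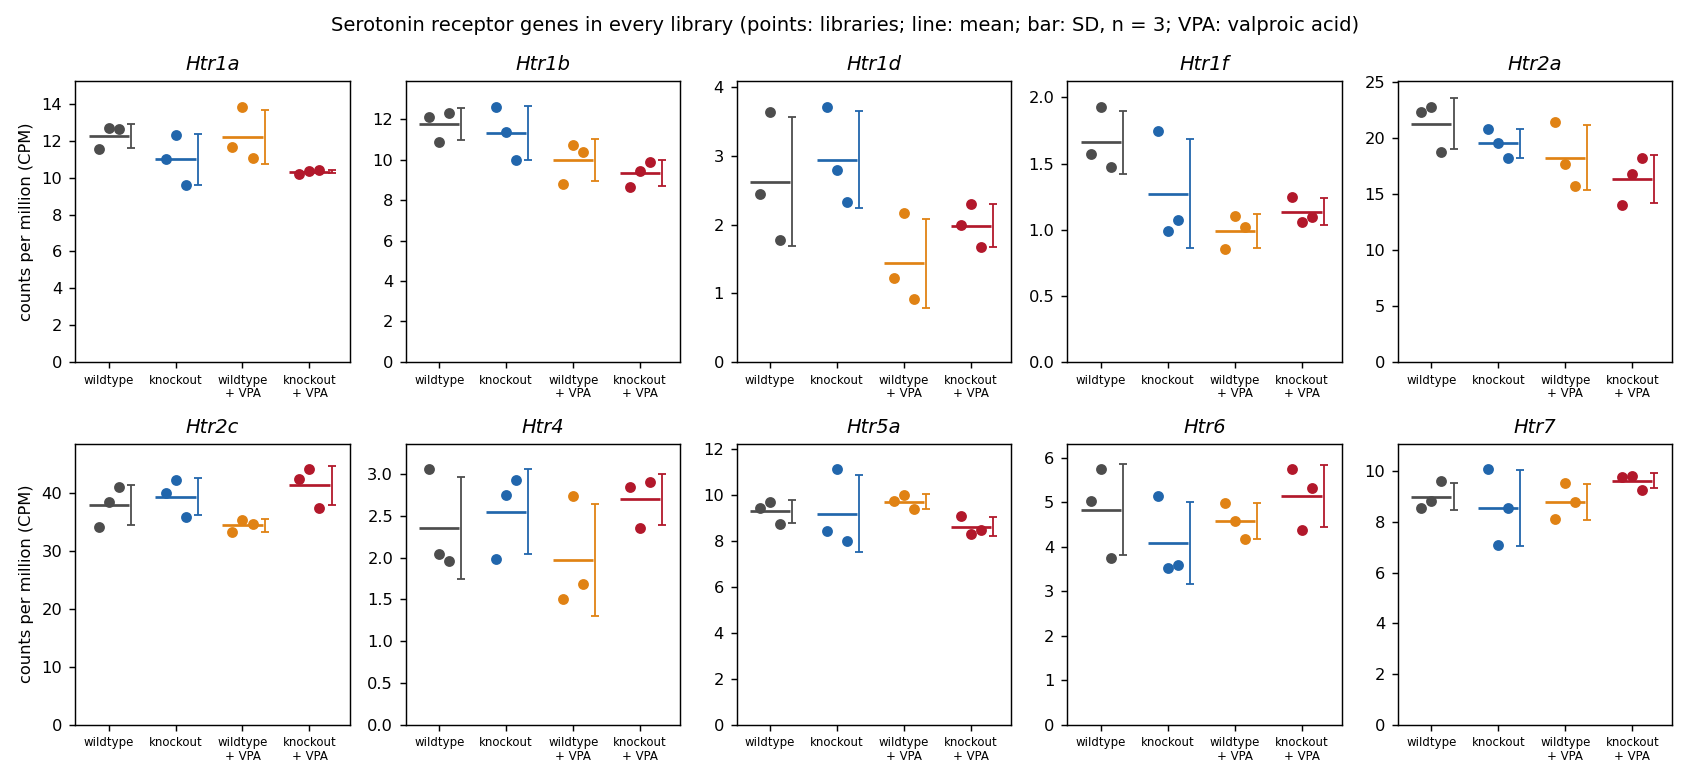
CPM (vertical axes, from 0) of the 10 receptor genes in the 4 groups, with a point per library, a line at the mean and a bar for the SD (n = 3). Htr1b and Htr1d lie lower in the exposed groups than in the unexposed groups of the same genotype, with overlap for Htr1d in wildtype, and Htr2c lies higher in exposed knockout than in exposed wildtype.

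Among exposed animals, knockout was again compared with wildtype, and Htr2c had the smallest p-value of the 10. Its 3 exposed knockout libraries were at 42.3, 44 and 37.4 CPM, and the 3 exposed WT libraries at 33.2, 35.3 and 34.6 CPM. The groups did not overlap, and the difference was 1.2-fold (41.2 ± 3.42 against 34.4 ± 1.08 CPM, log2 0.26 ± 0.09 SE, 95% interval 0.09 to 0.44). It did not pass after adjustment (unadjusted p = 0.00515, edgeR adjusted p = 0.453). Choroid plexus markers are given beside it. All 16 listed markers had positive values in this comparison, and 14 had an unadjusted edgeR p under 0.05 (7.44% of all genes). Of the 16, 1 passed (Cldn2, a tight junction gene of that epithelium, 1.91-fold, adjusted p = 0.0431), and none was at 0 throughout. Their summed level was 3488 to 4248 CPM in exposed knockout and 1818 to 3532 in exposed WT, after 1835 to 2818 in WT and 2497 to 2632 in knockout. Most of each sum was the marker Ttr, at 2426 to 2929 CPM in exposed knockout and 1267 to 2500 in exposed WT. Exposed WT replicate 3 had the highest marker sum of its group, 3532 CPM, and an Htr2c level of 34.6 CPM. The part of the choroid plexus in the Htr2c difference was not tested. Htr2c is on the X chromosome. Without both libraries lacking Xist the log2 fold change was 0.33 (adjusted p = 0.188).

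The other receptors differed less clearly between exposed knockout and exposed wildtype. Htr1a was at 10.2, 10.4 and 10.4 CPM in exposed knockout and 11.7, 13.9 and 11.1 CPM in exposed WT, with no overlap (log2 -0.24, edgeR adjusted p = 0.679). Htr5a, a little-studied receptor, was at 9.09, 8.3 and 8.49 CPM against 9.73, 10 and 9.38 CPM, also without overlap (log2 -0.17, adjusted p = 0.822). Htr4, at which agonists raise cyclic AMP in striatal and hippocampal neurons, had a log2 value of 0.44 with overlapping groups and a wide interval (-0.09 to 0.97). The 3 genes without overlap, of 10, compare with 13.2% of all tested genes. In this comparison 0 of 10 passed (0.05% of all genes), by edgeR, DESeq2 or limma-voom, and 1 had an unadjusted p under 0.05 (7.44% of all genes).

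Exposed WT was set against WT, which asks what prenatal valproic acid left in the adult receptors. The log2 fold change was negative for 9 of the 10 genes (median -0.18, against 0.01 over all tested genes), and none passed (0.895% of all genes passed). Again DESeq2 and limma-voom called 0, and 2 genes had an unadjusted p under 0.05 (14.2% of all genes). These were Htr1d and Htr1f, relatives of Htr1b. Htr1d was at 1.22, 2.17 and 0.918 CPM in exposed WT and 2.45, 3.64 and 1.78 CPM in WT. Replicate 2 of the exposed group lay above the lowest unexposed library (1.43 ± 0.653 against 2.63 ± 0.941 CPM, 1.78-fold lower, log2 -0.83 ± 0.30 SE, edgeR adjusted p = 0.186). Htr1f was at 0.851, 1.1 and 1.02 CPM in exposed WT and 1.57, 1.93 and 1.48 CPM in WT, with no overlap (log2 -0.73 ± 0.30 SE, adjusted p = 0.245). Htr1b was at 8.8, 10.7 and 10.4 CPM against 12.1, 10.9 and 12.3 CPM, also with no overlap (log2 -0.24, adjusted p = 0.374). The 2 genes without overlap compare with 20.8% of all genes. The log2 intervals of Htr1a (-0.25 to 0.24) and Htr7 (-0.30 to 0.24) were centred near 0.

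In the knockout, valproic acid was compared in the same way. Htr1b was at 8.64, 9.45 and 9.89 CPM in exposed knockout and 12.6, 11.4 and 9.98 CPM in knockout (log2 -0.28 ± 0.12 SE, edgeR adjusted p = 0.281). Htr2a was at 14, 16.8 and 18.2 CPM against 20.8, 19.5 and 18.2 CPM (log2 -0.26 ± 0.12 SE, adjusted p = 0.312). Htr1d was at 1.99, 2.3 and 1.67 CPM against 3.72, 2.79 and 2.33 CPM (log2 -0.58 ± 0.29 SE, adjusted p = 0.358). In all 3 genes every exposed library was below every unexposed one, by a narrow margin at the nearest pair, and 20.2% of all tested genes had groups that did not overlap. Htr6, a receptor concentrated in striatum, had the highest log2 value, 0.33, with an interval of -0.07 to 0.72. None of the 10 passed with edgeR, DESeq2 or limma-voom (0.0556% of all genes passed with edgeR), and 2 had an unadjusted p under 0.05 (14.9% of all genes). The interaction, which asks whether valproic acid acted differently in the genotypes, was past the test for 0 of 10 receptor genes and for 0% of all genes. No receptor gene had an unadjusted interaction p under 0.05 (5.97% of all genes did), and DESeq2 and limma-voom called 0. The widest interaction interval was that of Htr1f, -0.32 to 1.45, and the narrowest that of Htr2c, -0.05 to 0.45 on the log2 scale.

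**Figure D3:**
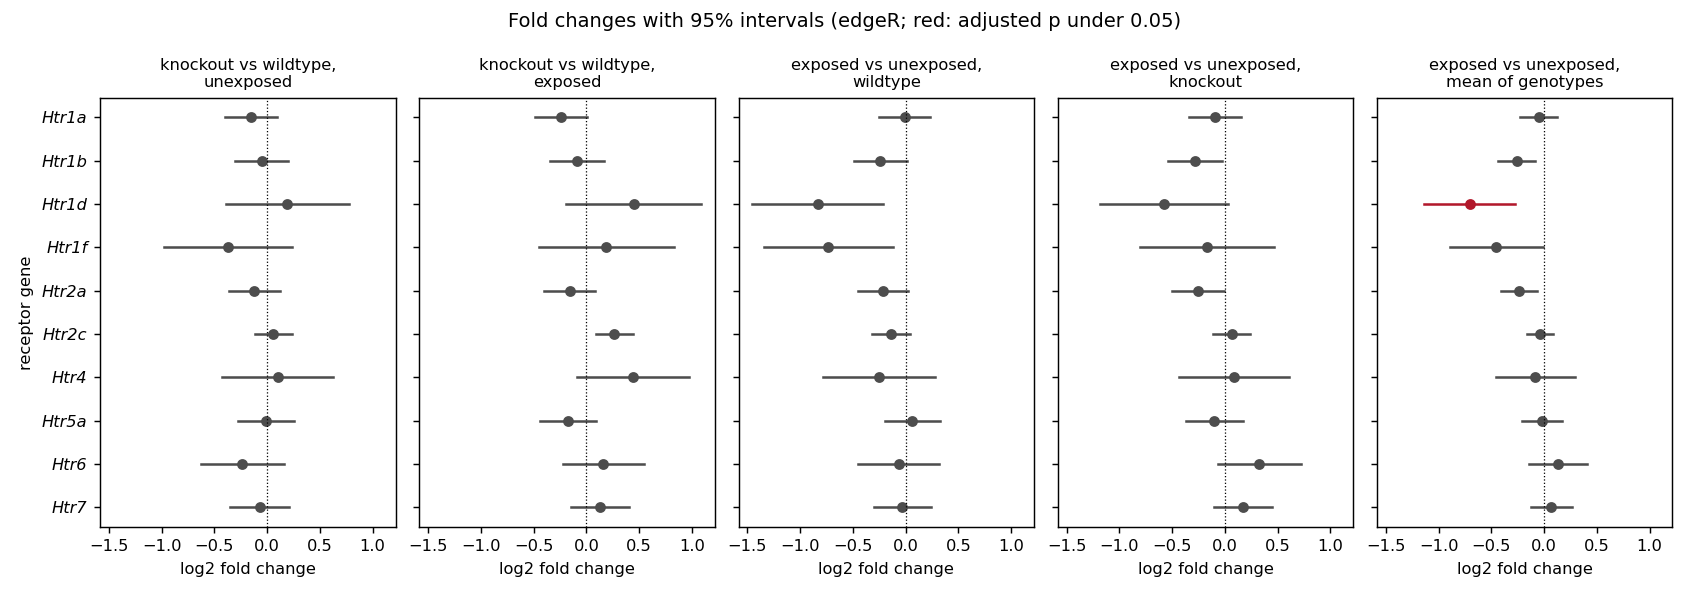
Log2 fold change (horizontal axes) of each receptor gene in 5 comparisons, with points for the edgeR estimate and lines for its 95% interval; red marks an adjusted p under 0.05. Htr1d in the mean of both genotypes, at -0.71, is the only red point.

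Averaged over both genotypes, the valproic acid effect rests on 6 exposed and 6 unexposed libraries, and shares them with the separate comparisons above. Htr1d fell. Its level in unexposed libraries was 1.78 CPM at the lowest, 2.62 at the median and 3.72 at the highest, and in exposed libraries 0.918, 1.83 and 2.3. Most exposed libraries lay under most unexposed ones, but the sets overlapped. The fall was 1.63-fold (log2 -0.71 ± 0.21 SE, 95% interval -1.14 to -0.27, edgeR adjusted p = 0.0471). It was 1 of 10 receptor genes to pass, where 5.99% of all tested genes passed and 3.87% passed and were lower. DESeq2 also called Htr1d and limma-voom did not (adjusted p = 0.0652). The call was lost on leaving out any library other than WT replicate 3 or exposed WT replicate 2, with adjusted p up to 0.12. Both libraries lacking Xist had the lowest Htr1d level of their group (0.918 and 1.67 CPM). Without them the log2 fold change was -0.54 (adjusted p = 0.224), and with a term for them in the fit it was also -0.54 (adjusted p = 0.239).

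Markers of other cell types are given beside the Htr1d result. All 20 listed striatal projection neuron markers had negative values in this comparison and 12 fell, including Tac1 (substance P precursor, log2 -0.69), Drd1 (D1 dopamine receptor, -0.64) and Penk (enkephalin precursor, -0.55). In wildtype alone all 20 were negative (median log2 -0.63) and 7 fell. In knockout alone 18 were negative and 2 positive (median -0.29), and 0 passed. None of the 20 was at 0 throughout, and their summed level was 2741 to 2878 CPM in WT, 2139 to 3110 in knockout, 1840 to 2056 in exposed WT and 1962 to 2357 in exposed knockout. Of 13 deep-layer cortical markers tested, Tle4, Syt6 and Foxp2 fell, and the summed list was at 498 to 533, 494 to 549, 480 to 504 and 457 to 495 CPM in the same order. All 9 tested olfactory bulb markers had negative values (median log2 -1.22), and 2, Synpr and Meis2, fell. That list summed to 350.9, 357.2 and 572.9 CPM in WT replicates 1, 2 and 3, so replicate 3 alone set the high end. It summed to 343.6 to 448.2 CPM in knockout, 261.5 to 286.8 in exposed WT and 284.7 to 314.9 in exposed knockout. Of 12 interneuron markers only Gad1 and Gad2 passed, both lower, and the list median was log2 -0.08. Of 12 upper-layer cortical markers Plxnd1 and Cux2 rose, and of 14 hippocampal markers 0 passed. All 16 choroid plexus markers had positive values (median log2 0.34), and 1, Steap1, rose. In wildtype alone 8 of the 16 were positive and 8 negative (median 0.01), whereas in knockout alone all 16 were positive (median 0.62). Of 10 tested hypothalamic and thalamic markers 9 had negative values (median log2 -0.35) and 0 passed. That list summed to 240.7 CPM in WT replicate 3 and to 66.1 to 122.1 CPM in the other libraries. Of 4 tested serotonin neuron markers 3 had negative values and 0 passed. The part of these cell types in the Htr1d result was not tested.

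**Figure D4:**
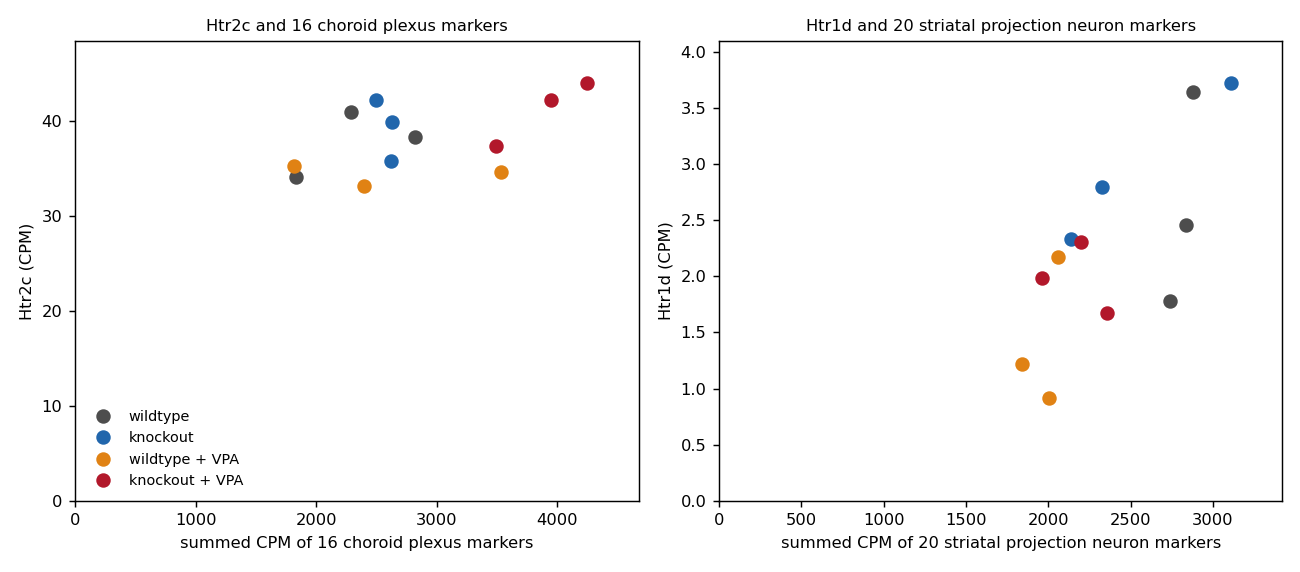
Left, Htr2c (CPM, vertical) against the summed CPM of 16 choroid plexus markers; right, Htr1d (CPM) against the summed CPM of 20 striatal projection neuron markers; each point is a library, coloured by group. Exposed knockout libraries have choroid plexus sums of 3488 to 4248 CPM, with exposed WT replicate 3 among them. Most of each choroid plexus sum is Ttr. Exposed libraries have striatal sums of 1840 to 2357 CPM, a range that also holds 2 of the 3 unexposed knockout libraries.

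Among the other Gi/o-coupled receptors, Htr1b came next in the average over genotypes. It was at 9.98, 11.7 and 12.6 CPM (lowest, median, highest) in unexposed and 8.64, 9.67 and 10.7 CPM in exposed libraries, 1.2-fold lower (log2 -0.26 ± 0.09 SE, edgeR adjusted p = 0.0737). An antisense gene, D430036J16Rik, lies opposite Htr1b and shares 852 exon bases with it. No source used here says whether counting used strand, so reads of the overlap cannot be assigned to either gene and the Htr1b value is uncertain. Htr1f was at a log2 value of -0.45 (adjusted p = 0.219), whereas Htr1a (-0.05, interval -0.22 to 0.12) and Htr5a (-0.02, interval -0.21 to 0.17) were near 0.

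Of the Gq-coupled pair, Htr2a was at 18.2, 20.1 and 22.8 CPM in unexposed and 14, 17.2 and 21.4 CPM in exposed libraries (log2 -0.24 ± 0.08 SE, edgeR adjusted p = 0.0905). It passed only with no filter on low counts (adjusted p = 0.0409) and without exposed WT replicate 1 (adjusted p = 0.0417). Htr2c had a log2 value of -0.04 with an interval of -0.16 to 0.09. The Gs-coupled Htr4, Htr6 and Htr7 had log2 values of -0.08, 0.13 and 0.07, each with an interval that held 0. In all, 4 of 10 genes had an unadjusted p under 0.05 and all 4 were lower (21.8% of all tested genes reached that level, 11.3% lower). No gene of the 10 had exposed and unexposed libraries that did not overlap, as against 3.14% of all genes.

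The knockout effect averaged over exposed and unexposed libraries was also computed. None of the 10 receptor genes passed by edgeR (0.05% of all genes did), DESeq2 or limma-voom, and 2 had an unadjusted p under 0.05 (4.42% of all genes). These were Htr2c (log2 0.16 ± 0.06 SE) and Htr1a (log2 -0.20 ± 0.08 SE), each with an adjusted p of 0.9999. Htr2c was at 33.2, 34.9 and 41 CPM (lowest, median, highest) in the 6 wildtype libraries and 35.8, 41.1 and 44 in the 6 knockout libraries. Htr1a was at 11.1, 12.2 and 13.9 CPM in wildtype and 9.62, 10.4 and 12.3 in knockout. The sets overlapped for both genes, as they did for all 10 (0.189% of all genes had sets that did not).

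Genes that act with the receptors were counted in the averaged valproic acid comparison, where 5.99% of all tested genes passed. Of 5 Gi/o alpha subunit genes and 6 genes of Gq and phospholipase C beta, 0 passed. Of the genes for Gs and Golf, Gnal, the Golf subunit of striatal neurons, fell (log2 -0.18 ± 0.06 SE, edgeR adjusted p = 0.049). Of 10 adenylyl cyclase genes, Adcy6 rose (log2 0.31 ± 0.07 SE, adjusted p = 0.00933) and 0 fell. Of 15 genes for proteins that bind or desensitise the receptors, Rgs2, which shortens Gq signals, fell (log2 -0.30 ± 0.08 SE, adjusted p = 0.0381). Of 11 tested genes of serotonin supply, Slc29a4, a monoamine transporter, rose (log2 0.33, adjusted p = 0.0132) and Pts, needed to make the cofactor of serotonin synthesis, fell (log2 -0.25, adjusted p = 0.0335). Whether these calls hold under other settings was not examined. Under those settings 172 to 1453 of all genes passed in the averaged valproic acid comparison. Slc29a4 also passed for valproic acid in knockout alone (log2 0.57, edgeR adjusted p = 0.0429), whereas 0 supply genes passed for it in wildtype alone. Of the receptor genes outside the list, Htr5b had 78 to 168 counts per group and a log2 value of -0.54 (adjusted p = 0.18), and Htr2b had 3 to 9 counts per group and was not tested. In the knockout comparisons without and with valproic acid, 0 genes passed in any of these lists of G-protein, cyclase, partner and supply genes.

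For each receptor gene the genes of most similar pattern were sought over the 12 libraries, by Pearson's r of log2 CPM among 11258 named genes whose mean was 5 CPM or more. These values describe the libraries, which share groups and depth, and the highest of so many will be large for any gene. Htr5a was most like Itsn2 (r = 0.958), Tbc1d24 (0.875) and Cacna1e (0.87). Htr1f was most like Rer1 (0.942), Cbr3 (0.916) and Tm2d2 (0.895), and Htr2a most like Rgs5 (0.936), Snw1 (0.936) and Lrrk2 (0.922). Htr1a was most like Ahctf1 (0.918), Alg2 (0.884) and Adgrb3 (0.864). Htr1b was most like Foxp2 (0.913), Kazn (0.905) and Lsm1 (0.902), and Htr1d most like Stk32a (0.896), Mrps22 (0.883) and Akirin1 (0.876). Htr7 was most like Parvg (0.895), Aldh4a1 (0.888) and Dad1 (0.885), and Htr4 most like Mtrf1l (0.894), Lzic (0.839) and Hus1 (0.81). Htr6 was most like Diras2 (0.882), Elp5 (0.871) and Cdk18 (0.861). Htr2c had the lowest top value, with Stard5 (0.846), Fam173b (0.838) and Hint2 (0.798).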

How the data were processed

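The values deposited are raw, unnormalised read counts by Ensembl identifier for 12 libraries whose totals were 16887885 to 24944681. The submitters' processing notes name HISAT2 and build GRCm39 (mm39). The labels' protocols give ribosomal RNA depletion and an NEB Next Ultra RNA library kit. The counting program, its annotation and strand use were not given in the sources used here. Symbols and exon lengths came from GENCODE M21 (GRCm38) for 52073 of 56748 identifiers, so gene positions are not printed. Only the promoter windows carry GRCm38.p6 coordinates, from RefSeq.

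Genes were kept by filterByExpr (17995), scaled by TMM, and fitted with a mean per group over all 12 libraries by edgeR 4.0.16 (robust quasi-likelihood, R 4.3.3). Two-sided p-values were adjusted by Benjamini-Hochberg across the 17995 genes, with a threshold of 0.05. Log2 CPM values had a prior count of 2. DESeq2 1.42.0, limma 3.58.1 (voom), other scalings and filters, the replicate block, and each library left out were alternatives, and 2 on Xist were chosen after seeing the data. The replicate block changed no receptor call. The receptor genes, lists and the rule for naming genes (all members; list genes past the test; the 3 genes most like each member) were chosen with earlier results of these data known. Htr2b, Htr5b, Htr3a, Htr3b, Tph2 and Slc6a4 could always be named. The Notch genes, Fev, Ttr and Xist were added as checks.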

Additional observations from a re-analysis of the deposited data

How the results depend on the processing

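The 10 receptor genes gave 70 fold changes, which were recomputed under 21 or 22 alternatives each, 1510 values in all. Of these, 1495 stayed on the same side of the threshold and 44 had the opposite sign, none of them past the test. In the 4 separate comparisons, the averaged knockout effect and the interaction, the number of receptor genes past the test was 0 under every alternative run. For valproic acid averaged over genotypes it was 1, and became 2 with no filter on low counts (Htr1d and Htr2a), 0 with limma-voom, 0 without both libraries lacking Xist and 0 with a term for them. It was 0 to 1 when each library was left out in turn. With 12 libraries left out in turn, Htr1d passed in 2 cases, with log2 fold changes from -0.92 to -0.56 and adjusted p from 0.0149 to 0.12. Over all genes, valproic acid in wildtype called 161, with 14 to 225 when a library was left out and 40 to 512 under other settings. In knockout it called 10 (2 to 162, and 2 to 391), and averaged 1078 (426 to 1193, and 172 to 1453). The knockout called 7 without valproic acid (6 to 9, and 6 to 15), 9 with it (7 to 86, and 8 to 60) and 9 averaged (7 to 19, and 7 to 46), and the interaction 0 (0 to 1, and 0 to 5). The cause of these shifts was not tested.

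Correlations of same-numbered libraries after removal of group means were -0.06 to 0.115. In knockout without valproic acid each library correlated best with its own number (3 of 3), against 0.02 at the highest for other pairings. In the other comparisons this held for 0 or 1 of 3. With 3 libraries a group these values cannot decide whether replicate numbers pair the samples. With the replicate block 115, 6, 6, 12, 876, 12 and 0 genes passed in the comparisons valproic acid in wildtype, valproic acid in knockout, knockout without it, knockout with it, both averages (valproic acid, knockout) and interaction, with 1 receptor gene in the averaged valproic acid comparison and 0 in the rest. Htr1d (18 to 79 counts per library), Htr1f (18 to 39) and Htr4 (33 to 76) had the fewest counts, and the spread was close to counting error for Htr1f, whereas Htr1d and Htr4 varied by more.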
